A study of Mus musculus with 6 samples.

Results

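The enteroendocrine genes described here are 10 genes of the hormone-secreting cells of the gut lining, found on the arrays as every gene probe that carries one of their symbols. They are the granins Chga and Chgb, the hormones Gcg, Pyy, Insl5, Sst and Cck, the serotonin synthesis enzyme Tph1, and the lineage regulators Neurod1 and Neurog3. Together they had 14 probes among 56605 gene probes, and 9 of the 10 genes were bright enough to be tested, among 19090 genes in all. Neurog3 was the exception.

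Enteroendocrine cells are rare epithelial cells that sense the content of the gut lumen and release peptide hormones or serotonin from dense-core granules. They arise from crypt progenitors that switch on Neurog3 for a short time, after which Neurod1 and other factors carry the program on. In the colon the main kinds are L cells, which make glucagon-like peptides, peptide YY and INSL5, enterochromaffin cells, which make serotonin, and D cells, which make somatostatin.

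The arrays compared colon tissue with tumors from male C57BL/6 mice, aged 6 to 8 weeks at purchase, in which AOM, a carcinogen, was injected at 10 μg/g and was followed after 7 days by 2% DSS in the drinking water for 5 days, an agent that injures the colon lining. Both groups carried this colitis-associated colon cancer (CAC) model. One group was given RG@M-γ-CD by mouth, which is the kinase inhibitor regorafenib (RG) held in mannose-modified γ-cyclodextrin, at 30 μg/g, equal to 10 μg/g of RG, and the other was given PBS. Treatment lasted 21 days and was followed by 14 days of observation. Each group had 3 one-color arrays, 1 per mouse, and the tissue was bulk, so that fewer cells of a type and less RNA per cell cannot be told apart. No tumor-free colon and no sorted cells were analysed here.

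Each value below is the log2 intensity of a probe minus the 75th percentile of all gene probes on the same array, so that a step of 1 is a doubling, and a value of 0 is the level of that percentile. A probe's brightness also depends on its own sequence, so that levels were compared between arrays and never between probes. The share of gene probes well above background was 49.6% to 55.2% per array, and all 6 arrays shared 1 slide. All 11 epithelial markers were well above background on all 6 arrays, and so was Hoxb13, a gene of the hindgut, at 6.14 to 6.79. By the numbers in the files, RG@M-γ-CD replicates 1, 2 and 3 are arrays 5, 6 and 7, and PBS replicates 1, 2 and 3 are arrays 8, 10 and 11. A heat map published with the arrays arranges them otherwise, with PBS replicate 1 beside RG@M-γ-CD replicates 2 and 3, and RG@M-γ-CD replicate 1 beside the other PBS arrays, without naming the conditions. The heat map was clustered, so that its order of columns need not be a grouping. Of the 10 posterior Hox genes on a list of position markers, Hoxd9, Hoxd11 and Hoxd12, named after their values were seen, were well above background on arrays 6, 7 and 8 alone, Hoxd10 was so on 4 arrays, 5 were so on all 6 and Hoxc10 on none. The groups are therefore given first as labelled, and the differences of the set and the lists are given again for the heat map's split.

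All 10 genes had a promoter window in RefSeq (GRCm38.p6), and 13 windows in all, each from 250 bases before the start of transcription to 50 after it. The windows below are shown because Gcg and Insl5, both L cell hormones, followed each other closely over the arrays, whereas Chgb and Sst, which share an uncommon motif, did not. Capitals mark the E-box CAGATG, the cAMP response element TGACGTCA and the TATA box TATAAA, each searched on both strands, so that TTTATA is a TATA box on the opposite strand. CAGATG is 1 form of the general E-box CANNTG, the kind of site that Neurod1 and Neurog3 are known to bind, and TGACGT is the shorter form of TGACGTCA. Gcg is at chr2:62483604-62483903 on the minus strand, Insl5 at chr4:103026679-103026978 on the minus strand, Chgb at chr2:132781392-132781691 on the plus strand, and Sst at chr16:23890795-23891094 on the minus strand.
Gcg: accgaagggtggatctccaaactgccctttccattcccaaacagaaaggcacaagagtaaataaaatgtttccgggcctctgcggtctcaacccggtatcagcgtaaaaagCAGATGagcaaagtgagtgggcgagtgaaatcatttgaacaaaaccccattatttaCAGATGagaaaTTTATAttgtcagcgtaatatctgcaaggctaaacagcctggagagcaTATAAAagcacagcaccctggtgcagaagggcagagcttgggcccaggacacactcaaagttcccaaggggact
Insl5: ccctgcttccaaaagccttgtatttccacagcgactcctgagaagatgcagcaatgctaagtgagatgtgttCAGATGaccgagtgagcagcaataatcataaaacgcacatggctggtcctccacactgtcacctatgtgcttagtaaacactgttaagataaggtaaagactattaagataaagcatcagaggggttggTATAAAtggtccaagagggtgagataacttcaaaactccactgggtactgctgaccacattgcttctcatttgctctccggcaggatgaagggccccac
Chgb: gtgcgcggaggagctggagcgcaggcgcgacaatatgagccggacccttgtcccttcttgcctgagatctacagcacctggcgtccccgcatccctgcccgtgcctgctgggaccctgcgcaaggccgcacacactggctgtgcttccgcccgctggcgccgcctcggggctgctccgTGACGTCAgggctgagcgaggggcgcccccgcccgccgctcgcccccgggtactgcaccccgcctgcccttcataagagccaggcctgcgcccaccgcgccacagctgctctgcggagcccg
Sst: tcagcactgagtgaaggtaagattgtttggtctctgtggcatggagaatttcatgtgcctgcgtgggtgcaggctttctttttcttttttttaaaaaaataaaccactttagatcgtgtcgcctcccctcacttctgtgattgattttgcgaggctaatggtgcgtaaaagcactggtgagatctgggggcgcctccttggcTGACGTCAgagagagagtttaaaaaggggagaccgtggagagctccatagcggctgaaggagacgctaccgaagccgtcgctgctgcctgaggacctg

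Gcg held CAGATG at 2 places, 139 and 83 bases before the start, and Insl5 held it once, 178 bases before the start. The other Insl5 window, at chr4:103027222-103027521, did not hold it. Pyy, also an L cell hormone, held it in none of its windows, and its levels followed those of Gcg at a Pearson r of 0.94. Cck was the only other gene of the set with this motif in its window, and 17.2% of all 32851 promoter windows of the same length held it. The general E-box CANNTG was in 72.3% of all windows. TGACGTCA stood 72 bases before the start of Chgb and 48 bases before that of Sst, and was in 1.79% of all windows. The shorter TGACGT was also in the window of Chga, and was in 7.51% of all windows. TATAAA was in the windows of Gcg, Insl5 and Chga, and in 13.6% of all windows. These matches describe letters in the windows, and no binding was measured.

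The granins are acidic proteins that pack hormones into dense-core granules and serve as general markers of endocrine cells. Chga (probe A_51_P358316, mm9 chr12:103803083-103803142, plus strand) stood at 1.36, 4.49 and 3.45 in RG@M-γ-CD replicates 1, 2 and 3, and at 2.58, 3.52 and 2.44 in PBS replicates 1, 2 and 3. The lowest and the highest array were both in the RG@M-γ-CD group, and all PBS arrays lay between them. The means were 3.10 ± 1.59 for RG@M-γ-CD and 2.84 ± 0.59 for PBS (SD, n = 3 each). Chgb (A_51_P191669, chr2:132620703-132620762, plus strand) stood at 2.12, 5.41 and 4.65 in RG@M-γ-CD and at 3.67, 4.62 and 3.49 in PBS. The same treated array was again the lowest and the same treated array the highest, 9.75-fold apart. Chgb was printed in 10 spots on each array, and the SD of these spots within an array was 0.030 to 0.076, against an SD of 1.72 over the RG@M-γ-CD arrays and 0.61 over the PBS arrays.

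L cells co-release the products of Gcg, Pyy and Insl5. Gcg encodes proglucagon, from which these cells cut glucagon-like peptides 1 and 2. Its brighter probe (A_51_P406253, chr2:62312685-62312744, minus strand) stood at −0.67, 2.51 and 1.77 in RG@M-γ-CD and at 0.77, 1.43 and 1.23 in PBS, with means of 1.20 ± 1.67 and 1.14 ± 0.34 (SD, n = 3 each). The PBS arrays lay within a range of 1.58-fold, and the RG@M-γ-CD arrays spanned 9.10-fold. A second Gcg probe (A_55_P2936639, chr2:62318657-62318716, minus strand) stood between −3.37 and −2.96 on all 6 arrays. Although well above background on every array, it did not follow the first probe: its lowest array was RG@M-γ-CD replicate 2, the highest array of the first. Its accession is not in the RefSeq table, and the results for Gcg rest on the first probe.

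Pyy encodes peptide YY, which slows gut transit and reduces appetite. Its probe (A_52_P366462, chr11:101968311-101968370, minus strand) stood at 1.70, 4.76 and 3.88 in RG@M-γ-CD and at 3.28, 3.65 and 2.69 in PBS. Insl5 encodes a relaxin-family peptide made in L cells of the distal gut. It stood at −0.29, 2.82 and 2.11 in RG@M-γ-CD and at 0.90, 1.90 and 1.25 in PBS (A_55_P2255325, chr4:102690720-102690779, minus strand). In both genes RG@M-γ-CD replicate 1 was below every PBS array, and RG@M-γ-CD replicates 2 and 3 were above every PBS array. The span over the 6 arrays was 8.33-fold for Pyy and 8.64-fold for Insl5.

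Sst encodes somatostatin, which inhibits the release of other gut hormones and is made in D cells and in some enteric neurons. Its probe (A_55_P2837304, chr16:23889681-23889740, minus strand) stood at 0.22, 1.78 and 2.76 in RG@M-γ-CD and at −0.18, 1.20 and 1.21 in PBS. Here the lowest array was PBS replicate 1 and the highest RG@M-γ-CD replicate 3, so that the order differed from that of the L cell hormones. Cck encodes cholecystokinin, which empties the gallbladder and is made mainly in the small intestine. It stood at −1.71, −0.58 and −0.29 in RG@M-γ-CD and at −1.35, 0.14 and 0.21 in PBS (A_55_P1977431, chr9:121398943-121399002, minus strand). The highest array was PBS replicate 3. Cck was the only tested gene of the set with a lower mean in RG@M-γ-CD, and its 8 to 10 spots within an array had an SD of 0.042 to 0.12.

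Tph1 makes the first, rate-limiting step of serotonin synthesis in enterochromaffin cells, and mast cells use it as well. Its brightest probe (A_51_P458130, chr7:53902606-53902665, minus strand) stood at −2.69, −0.58 and −0.80 in RG@M-γ-CD and at −2.01, −1.11 and −1.18 in PBS. The array order was that of Gcg and Insl5. Of the other Tph1 probes, A_52_P613868 was well above background on 0 arrays, and A_55_P2934423 on 1 array of each group.

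Neurod1 is the transcription factor that acts after Neurog3 in endocrine differentiation. Its probe (A_55_P2908538, chr2:79292819-79292878, minus strand) stood at −5.67, −1.45 and −2.55 in RG@M-γ-CD and at −3.47, −3.05 and −4.14 in PBS. It was not well above background in RG@M-γ-CD replicate 1, and it was well above background on the other 5 arrays. Over those 5 arrays it spanned 6.49-fold. Neurog3, which marks the progenitors, had probes A_51_P175784 (chr10:61596570-61596629) and A_55_P2096028 (chr10:61596051-61596110), both on the plus strand, and was well above background on 0 of 6 arrays by either, so that no level and no fold is given.

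**Figure D1:**
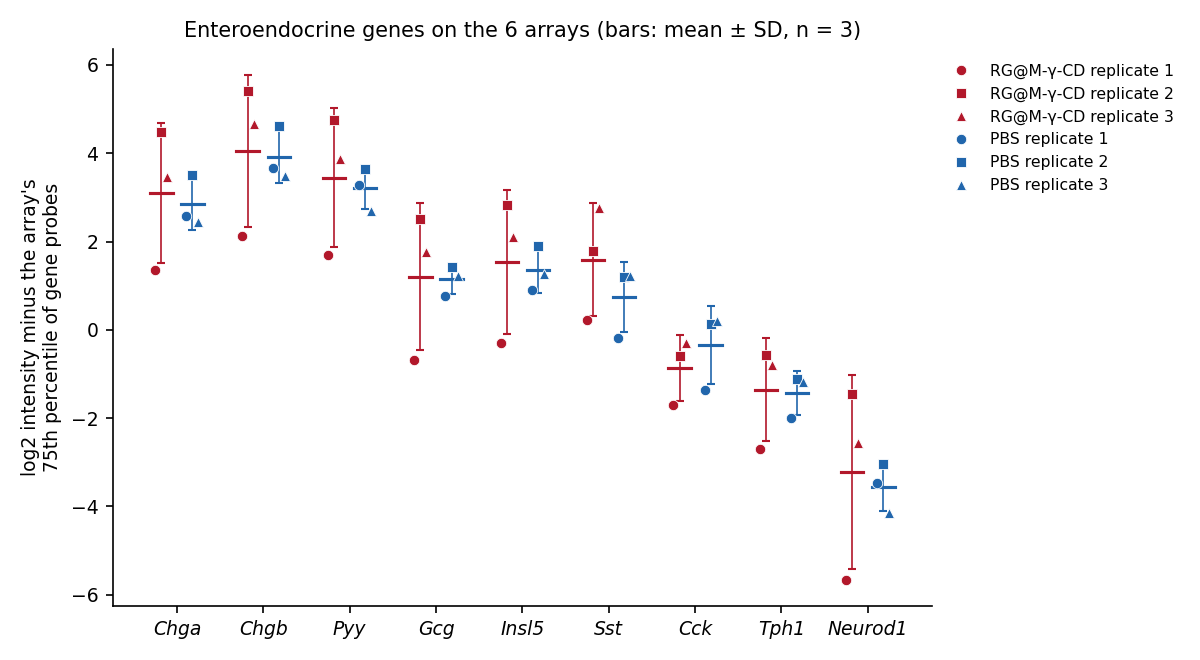
Level of the 9 tested genes on each array, as log2 intensity minus the array's 75th percentile of gene probes, with the mean and SD of 3 arrays per group. RG@M-γ-CD replicate 1 (red circles) is the lowest array in 8 of the 9 genes and RG@M-γ-CD replicate 2 (red squares) the highest in 7, with the PBS arrays (blue) mostly between them.

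With the arrays grouped as labelled, none of the 9 tested genes differed between RG@M-γ-CD and PBS beyond the spread between arrays. By limma, 0 of 9 passed an adjusted p of 0.05, where 0% of the 19090 genes passed, and 0 of 9 lay below an unadjusted p of 0.05, where 2.19% of all genes did. The methods' t-test also gave 0 of 9 at either threshold. In 0 of the 9 genes were the groups free of overlap, against 4.57% of all genes. The mean was higher in RG@M-γ-CD in 8 of the 9 genes, against 47.2% of all genes, with a median log2 change of 0.20 against −0.012 over all genes. These 8 include Neurod1, whose RG@M-γ-CD mean holds a dim value. The genes moved together from array to array, so that they are no separate observations. The count of 8 became 1 to 8 when 1 array was left out.

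The size of these differences was small against their error. Chga differed by 0.26 (95% confidence interval −1.63 to 2.14), Chgb by 0.14 (−1.88 to 2.16), Gcg by 0.059 (−1.83 to 1.95), Pyy by 0.24 (−1.59 to 2.07) and Insl5 by 0.20 (−1.70 to 2.09). The largest difference was that of Sst, at 0.84 (standard error 0.70, 95% confidence interval −0.84 to 2.53). Cck differed by −0.53 (standard error 0.54, −1.83 to 0.78), Tph1 by 0.076 (standard error 0.59) and Neurod1 by 0.33 (standard error 1.04). Neurod1 passed the filter only through PBS. Its difference includes the dim value of RG@M-γ-CD replicate 1 and is no measured fold. Adjusted p from limma was 1 for each of the 9 genes. The intervals of all of these genes except Sst and Cck allowed a more than 2-fold change in either direction. That of Sst allowed such an increase and that of Cck such a decrease. In each of the 9 genes a change of that size was thus not excluded in at least 1 direction. Changes of that size were not reliably detectable with 3 arrays per group. A decrease of that size in Sst and an increase of that size in Cck lay outside the intervals. The smallest two-sided p that an exact permutation of 3 against 3 allows is 0.1.

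The arrays differed more from each other than the groups did. The SD over the 6 arrays had a median of 1.08 over the 9 genes and of 0.27 over all genes tested. Cck had the smallest SD of the set, and 91.4% of all genes had a smaller one. The SD of Neurod1 includes its dim array and was 1.44 over the 6 arrays and 1.01 over the 5 on which it was above background. The same held within the groups, where the SD pooled over both groups had a median of 1.20 for the set and 0.28 for all genes. Spread was wider in RG@M-γ-CD than in PBS for every tested gene of the set except Cck. The SD of Gcg was 1.67 against 0.34, and that of Cck 0.75 against 0.88.

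**Figure D2:**
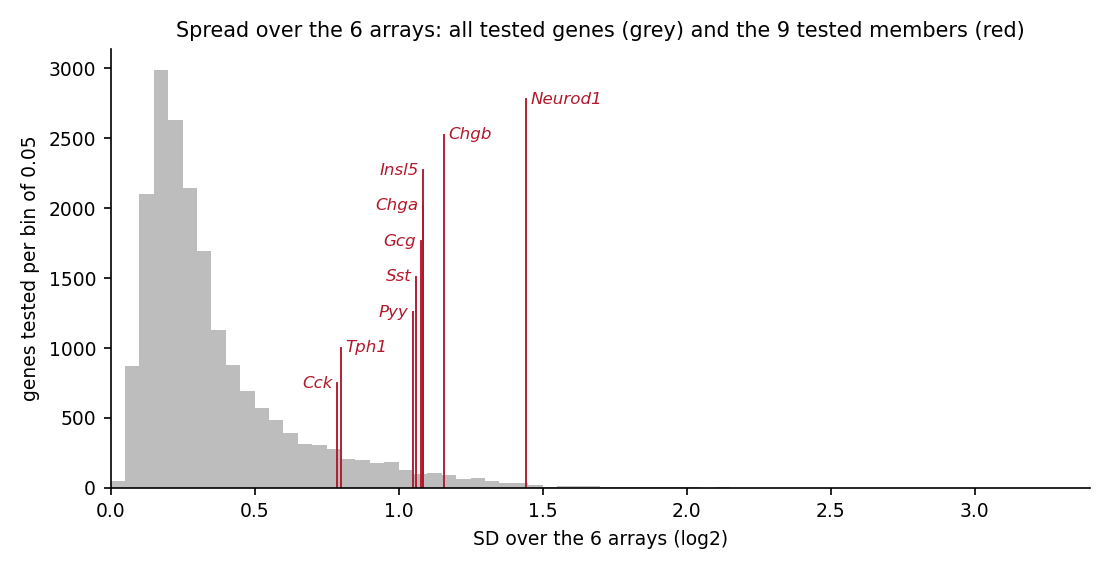
Number of tested genes (grey bars) by their SD over the 6 arrays in bins of 0.05 on the log2 scale, with the 9 tested enteroendocrine genes as red lines whose heights only separate the names. The 9 lines lie between 0.79 (Cck) and 1.44 (Neurod1), to the right of the median of all genes at 0.27, and that of Neurod1 includes 1 array on which it was not well above background.

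The genes moved together from array to array. After each gene was centred on its own mean, the 9 genes averaged −1.59 in RG@M-γ-CD replicate 1, 1.16 in replicate 2 and 0.70 in replicate 3, and −0.50, 0.40 and −0.17 in PBS replicates 1, 2 and 3. RG@M-γ-CD replicate 1 was the lowest array in 8 of 9 genes and RG@M-γ-CD replicate 2 the highest in 7 of 9. PBS replicate 2 was the third in 6 genes and the second in 2. Chga and Chgb kept nearly the same distance on every array, with an SD of their difference of 0.16. For Gcg and Insl5 this SD was 0.17.

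As a description over the 6 arrays, which share 1 slide and the same scaling, the Pearson r of Chga and Chgb was 0.99 (Spearman rho 0.94) and that of Gcg and Insl5 0.99 (rho 1). The 21 pairs among the 7 genes other than Sst and Cck had an r of 0.855 to 0.998 with 0.97 as their median, where the pairs with Neurod1 include its dim array. When RG@M-γ-CD replicates 1 and 2 were set aside, the arrays farthest from the middle, these pairs spread from 0.36 to 0.997 over the other 4 arrays, with a median of 0.88, so that the closeness of some pairs rests on those arrays. Sst reached an r of 0.60 to 0.83 with the other genes, and Cck 0.43 to 0.79. Both genes shared the low level of RG@M-γ-CD replicate 1, yet Sst was higher in RG@M-γ-CD replicate 3 than in replicate 2, and Cck was higher in PBS replicates 2 and 3 than in any RG@M-γ-CD array.

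**Figure D3:**
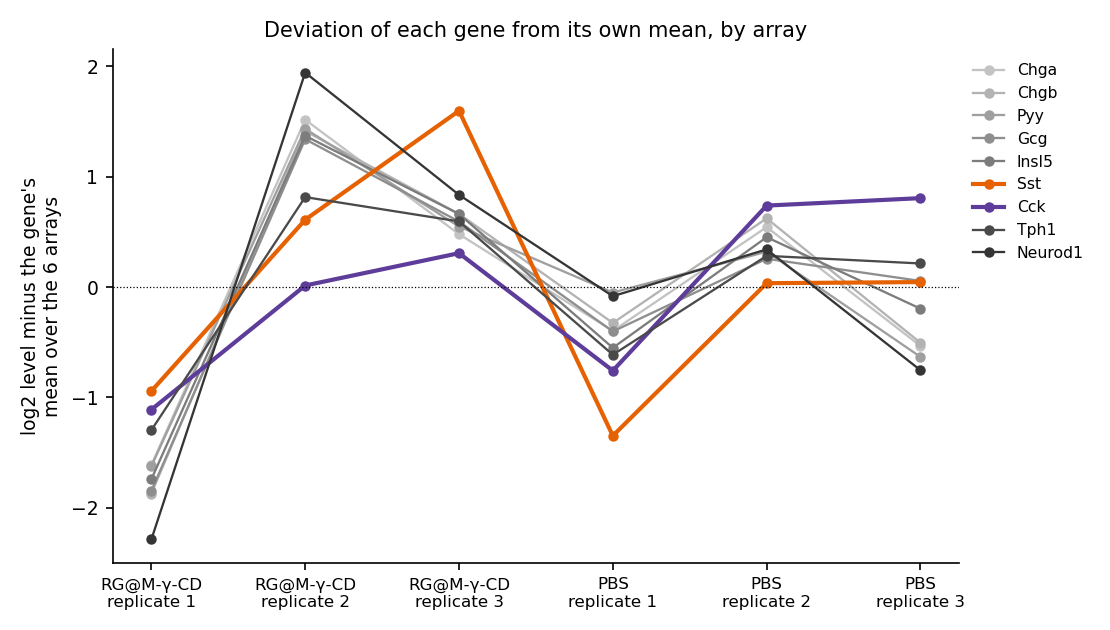
Level of each tested gene on the 6 arrays after its own mean over the arrays was subtracted (log2); grey lines are 7 genes, Sst is orange and Cck purple. The grey lines run together, low in RG@M-γ-CD replicate 1 and high in replicate 2, whereas Sst peaks in RG@M-γ-CD replicate 3 and Cck in PBS replicate 3.

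Single arrays decided the direction and size of most differences. Without RG@M-γ-CD replicate 1, Chga was higher in RG@M-γ-CD by 1.13 on the log2 scale, Chgb by 1.11, Gcg by 0.997, Pyy by 1.11, Insl5 by 1.11, Sst by 1.53 and Neurod1 by 1.55, and these 7 of 9 genes lay below an unadjusted p of 0.05 in limma, where 12.5% of all genes did. After adjustment 0 of 9 passed, with a smallest adjusted p of 0.211, where 1.04% of all genes passed. The array left out was the lowest in 8 of the 9 genes. Leaving it out thus raises the RG@M-γ-CD mean and narrows its range in those genes, and the p-values are no independent support. The genes also moved together, so that the 7 are not separate observations. The groups did not overlap in 7 of the 9 genes, namely Chgb, Gcg, Pyy, Insl5, Sst, Tph1 and Neurod1, against 25.9% of all genes. Without RG@M-γ-CD replicate 2, the mean was higher in RG@M-γ-CD in 1 of 9 genes, Sst, and Gcg stood at −0.60 and Chgb at −0.54. Without RG@M-γ-CD replicate 3 the count was 3 of 9, and without PBS replicate 1 it was 5 of 9.

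In the split of the heat map, arrays 6, 7 and 8 had higher means than arrays 5, 10 and 11 in 8 of the 9 genes, against 36.2% of all genes, with a median difference of 1.02 against −0.12. Neurod1 was higher by 1.80 and Pyy by 1.29, followed by Chgb at 1.17, Chga at 1.07, Gcg at 1.02 and Insl5 at 0.99. Neurod1 was not well above background on array 5, so that it passed the filter only through arrays 6, 7 and 8. Its difference includes that dim value and is no measured fold. Cck was lower, at −0.29. By limma, 0 of 9 passed an adjusted p of 0.05 (smallest 0.303), where 0.0259% of all genes passed, and 0 of 9 lay below an unadjusted p of 0.05, where 16.5% of all genes did. The smallest unadjusted p values were 0.0534 for Neurod1, with the limit given above, and 0.060 for Pyy. Both splits share all 6 arrays and are no independent evidence for each other. The heat map was clustered on these same data, so that p-values for its split do not test a grouping set beforehand.

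**Figure D4:**
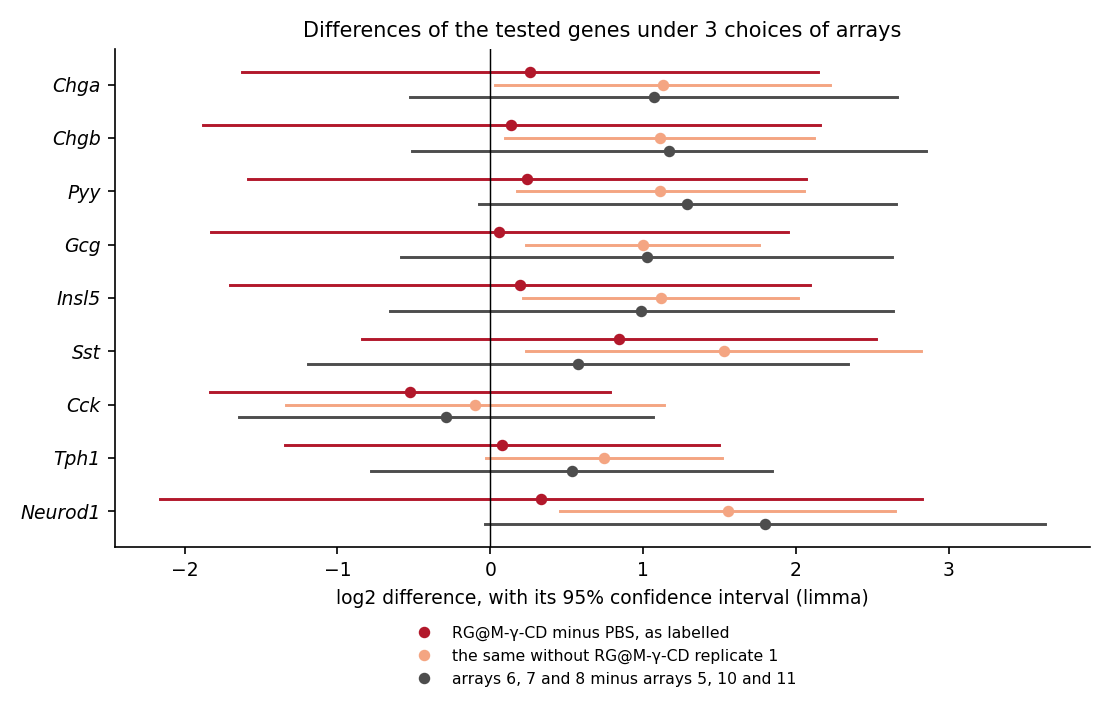
Log2 difference of each tested gene with its 95% confidence interval from limma, for RG@M-γ-CD minus PBS as labelled (red), the same without RG@M-γ-CD replicate 1 (light red), and arrays 6, 7 and 8 minus arrays 5, 10 and 11 (grey). As labelled, all 9 intervals span 0 widely. Without replicate 1 of RG@M-γ-CD the intervals of 7 genes lie above 0. That array was the lowest in 8 of the 9 genes, and Neurod1 was not well above background on it.

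Other genes of the enteroendocrine program were described from 6 lists. Of 61 such genes tested, 0 passed the adjusted threshold in limma, and 1, Sstr3, lay below an unadjusted p of 0.05, where 2.19% of all genes did. Sstr3, a somatostatin receptor, was higher in RG@M-γ-CD by 0.78 (standard error 0.25, unadjusted p = 0.0179, adjusted p = 1). It stood at −1.86, −1.27 and −2.14 in RG@M-γ-CD and at −2.50, −2.45 and −2.66 in PBS. The groups did not overlap, as in 4.57% of all genes, and in the split of the heat map the difference was 0.36 (unadjusted p = 0.359 in limma).

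Of the other gut hormones, 6 were tested, 3 of them higher in RG@M-γ-CD, with a median change of −0.048. The ends of this list were Ppy, pancreatic polypeptide, at 0.22 (standard error 0.78) and Tac1, which encodes substance P, at −1.04 (standard error 0.56). Gip, Gast and Ucn3 were well above background on none of the 6 arrays. Of the other lineage regulators, 11 were tested and 8 were higher, with a median of 0.13, from Isl1 at −1.06 (standard error 0.93) to Runx1t1 at 0.81 (standard error 0.76).

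The genes that build granules and process prohormones had 19 tested members, 13 of them higher in RG@M-γ-CD, with a median of 0.36. Vgf, a granin-like protein, was highest in this list at 1.20 (standard error 1.06), and Slc18a1, the vesicle transporter that loads serotonin in enterochromaffin cells, was lowest at −0.23 (standard error 0.51). Of the sensors of nutrients and other stimuli, 9 were tested and 4 were higher, with a median of −0.013, from Trpa1, an irritant channel, at −0.74 (standard error 0.60) to Abcc8, a subunit of the ATP-sensitive potassium channel, at 0.28 (standard error 0.66). Of the receptors for these hormones and for serotonin, 11 were tested and 10 were higher, with a median of 0.44, from Htr7 at −0.36 (standard error 0.26) to Htr2b at 1.05 (standard error 0.71). The receptors Glp1r, Cckar, Cckbr and Sstr2 were among the 7 genes of that list above background on none of the arrays. Of the genes that remove hormones or serotonin, 5 were tested and 4 were higher, with a median of 0.15, from Mme, the peptidase neprilysin, at −0.11 (standard error 0.54) to Slc6a4, the serotonin transporter, at 0.61 (standard error 0.74).

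By the mean of centred values, RG@M-γ-CD replicate 1 was the lowest array in all 6 lists, whereas the highest array differed between them. By summed level the lineage regulators were lowest in PBS replicate 1, at 5.579, against 5.725 in RG@M-γ-CD replicate 1. Not every gene followed its list. Slc18a1, Foxa1 and Rfx3 were highest in RG@M-γ-CD replicate 1 and lowest in replicate 2, with Slc18a1 at 3.01 and 0.86. Centred on each gene's mean, the lineage regulators averaged −0.93 in RG@M-γ-CD replicate 1 and 0.97 in replicate 2, their highest array, and the removal genes −0.83 and 0.89. The granule genes averaged −0.73 in replicate 1 and were highest in replicate 3, at 0.78. The other gut hormones were highest in PBS replicate 3, at 0.37. Without RG@M-γ-CD replicate 1, 2 of 65 tested genes of these lists passed the adjusted threshold, both of the granule list. These were Cpe, carboxypeptidase E, which trims prohormones, at 1.55 (standard error 0.17, adjusted p = 0.0305 from limma) and Scg5, a chaperone of prohormone convertase 2, at 1.61 (standard error 0.21, adjusted p = 0.0379). Both are named after their values were seen, both were lowest in the array left out, and 1.04% of all genes passed in that fit. In the same fit 6 of 8 smooth muscle markers and 2 of 15 enteric neuron markers passed as well, and the part of those cells in the values of Cpe and Scg5 was not tested.

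In the split of the heat map, 0 genes of these 6 lists passed the adjusted threshold. The lineage regulators had 10 of 12 tested genes higher on arrays 6, 7 and 8, with a median difference of 1.17, and 2 lay below an unadjusted p of 0.05. Of the granule genes, 17 of 19 were higher (median 0.43, 2 below an unadjusted p of 0.05), and of the hormones 5 of 6 (0.38, 0). The sensors had 6 of 9 higher (0.29, 3), the receptors 7 of 11 (0.52, 1) and the removal genes 4 of 5 (0.95, 3). All 8 muscle markers were higher in that split, with a median of 1.62, and all 8 lay below an unadjusted p of 0.05, with 0 past the adjusted threshold. The neuron markers had 14 of 15 higher (1.11, 2), the epithelial markers 2 of 11 (−0.22, 0) and the mast cell markers 1 of 8 (−0.25, 0). The islet markers had 1 of 4 higher (−0.40, 1) and the exocrine pancreas markers 2 of 6 (−1.14, 2). Of the posterior Hox genes 5 of 9 were higher (3.71, 5). That median includes genes that were not well above background on all arrays and is no measured fold. Hoxd13, well above background on all 6 arrays, was higher by 5.21 (unadjusted p = 0.000949, adjusted p = 0.2495 in limma). Hoxd9 and Hoxd12, above background only on the 3 arrays of 1 side, passed the adjusted threshold (adjusted p of 0.0188 and 0.0372 in limma). They entered the fit only through those arrays, where they were high, so that these p-values are no test of the split. Elavl3 of the neuron markers also entered this fit only through arrays 6, 7 and 8.

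RG@M-γ-CD replicate 1 was also the lowest array for the markers of smooth muscle and of enteric neurons. Enteric neurons and mast cells use some genes of the set, smooth muscle forms the outer layers of the colon wall, and the epithelium is where enteroendocrine cells lie. The summed level of the 8 tested smooth muscle markers ranged from 6.76 to 9.69 in RG@M-γ-CD and from 7.67 to 7.89 in PBS, and its lowest array was also RG@M-γ-CD replicate 1. The 14 tested enteric neuron markers summed to 3.22 to 4.85 in RG@M-γ-CD and 3.47 to 3.84 in PBS, again with RG@M-γ-CD replicate 1 lowest. Centred on each gene's mean, both lists were highest in RG@M-γ-CD replicate 3, at 1.54 for muscle and 1.08 for neurons, and not in replicate 2, the highest array of the enteroendocrine set. The 9 enteroendocrine genes summed to 3.73 to 6.78 in RG@M-γ-CD and 4.99 to 5.88 in PBS. As labelled, none of these lists had a gene past the adjusted threshold, with 8 of 8 muscle markers (median 0.93) and 11 of 14 neuron markers (median 0.63) higher in RG@M-γ-CD. Without RG@M-γ-CD replicate 1, the muscle markers Acta2, Cnn1, Myh11, Mylk, Smtn and Tagln passed the adjusted threshold, 6 of 8 tested, and so did the neuron markers Elavl3 and Nefm, 2 of 15. The adjusted p of these genes was 0.0300 to 0.0311 in limma, and the median change was 1.76 for the muscle list and 1.18 for the neuron list, against 1.11 for the enteroendocrine set. Elavl3 was well above background on 4 of the 6 arrays. It entered this fit only through the RG@M-γ-CD arrays, where it was high, so that its p-value is no test. The array left out was the lowest of the 6 for Nefm and the named muscle markers. The part of neurons and muscle in the levels of the enteroendocrine genes was not tested.

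The epithelial markers, by contrast, stood nearly level over the arrays as a list. Their summed level was 10.25 to 10.5 in RG@M-γ-CD and 10.11 to 10.65 in PBS, with 6 of 11 higher and a median of 0.011. The SD over the 6 arrays had a median of 0.25 in this list. Single markers varied more, with Cdx2 between 2.09 and 3.68 and Krt20 between 5.94 and 7.07. When the epithelial markers were taken as the reference in place of the 75th percentile, a choice made after seeing the data, the SD over the arrays went from 1.16 to 1.12 for Chgb, from 1.09 to 1.03 for Insl5 and from 0.79 to 0.61 for Cck, while it stayed at 1.44 for Neurod1 and went from 1.05 to 1.06 for Pyy. The mast cell markers were highest in PBS replicate 3, at 4.54, against 3.14 to 3.85 on the RG@M-γ-CD arrays. Of these markers 2 of 8 were higher in RG@M-γ-CD, with a median of −0.071. Tph1 was not highest in PBS replicate 3, and the part of mast cells in its level was not tested. Of the islet markers, Ins1, Ins2, G6pc2, Slc2a2 and Nkx6-1 were above background on none of the 6 arrays, and the other 4, tested, had a median of 0.026. Of the 7 tested exocrine pancreas markers, 1 was higher and the median was −1.13. Among them Prss2, a trypsinogen, was well above background on 0 RG@M-γ-CD arrays and on all 3 PBS arrays, and its mean was at least 3.43-fold lower in RG@M-γ-CD (adjusted p = 1 in limma). This bound sets the dimmest signal well above background on each RG@M-γ-CD array in place of the dim probe, which passed the filter only through PBS, and the median of the list is the same with it. The PBS arrays stood at −3.05, −0.28 and −4.34 for Prss2, and the mean of the bound was −4.34. PBS replicate 3 was thus at the bound itself. The list was highest in PBS replicate 2. The posterior Hox genes had 3 of 5 higher and a median of 0.19.

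**Figure D5:**
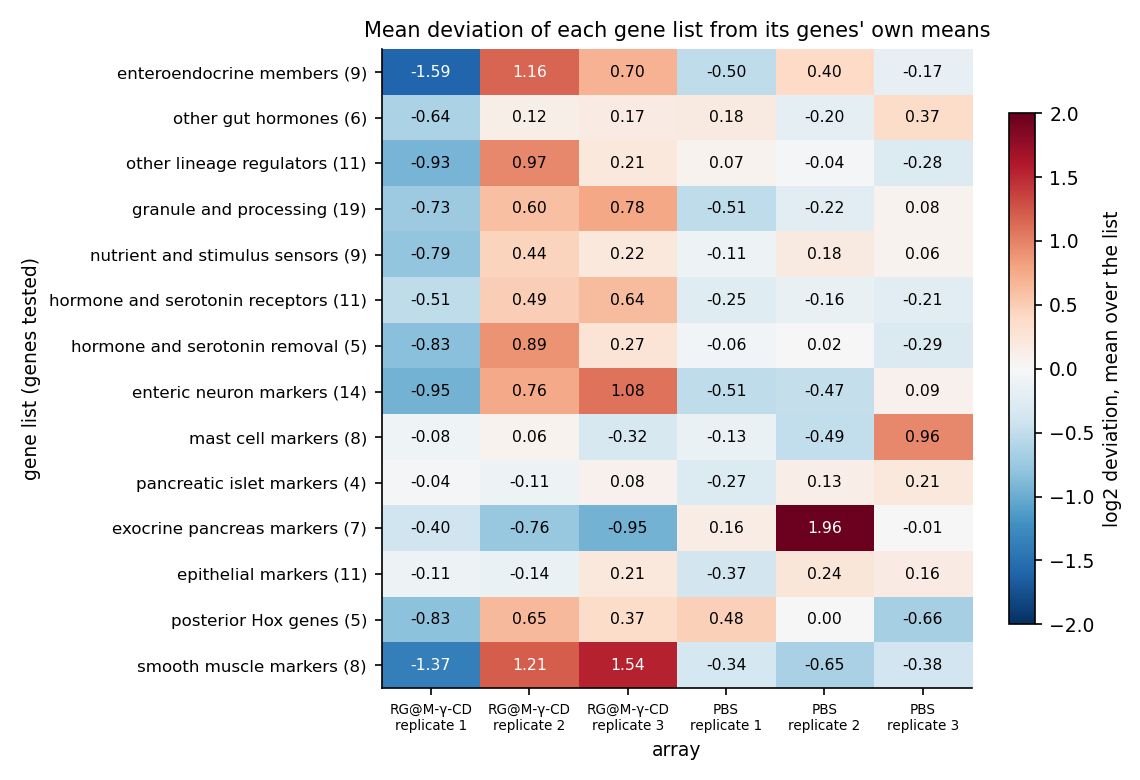
Mean log2 deviation of each gene list from its genes' own means (color and number) on the 6 arrays, with the number of tested genes in brackets. The enteroendocrine genes and the smooth muscle markers have their lowest value in RG@M-γ-CD replicate 1, at −1.59 and −1.37, whereas the epithelial markers stay between −0.37 and 0.24.

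The genes whose levels followed the mean of the enteroendocrine set most closely were found among all tested genes well above background on all 6 arrays, by Pearson r over the 6 arrays, as a description. They were Gstm2, a glutathione transferase (r of 0.998, Spearman rho 1), Nxpe2 (0.997), B3gnt7 (0.996), Ccdc184 (0.995), Arhgef39, Tmem63a and Pccb (0.993 each), and Tfcp2l1, Klf4 and Pck2 (0.992 each). Klf4, a transcription factor of differentiated colon epithelium and goblet cells, stood at 5.77, 7.34 and 6.93 in RG@M-γ-CD and at 6.28, 6.76 and 6.45 in PBS. B3gnt7, a glycosyltransferase, stood at −1.47, 1.28 and 0.64 in RG@M-γ-CD and at −0.28, 0.48 and −0.022 in PBS. The array order of both was that of Gcg and Insl5. An r above 0.8 with the set was found for 9.32% of all tested genes, for 7 of 11 other lineage regulators, for 9 of 19 granule genes, for 6 of 8 smooth muscle markers and for 1 of 11 epithelial markers. Over the 5 arrays other than RG@M-γ-CD replicate 1, such an r was found for 10.3% of all genes, for 4 of 11 lineage regulators, for 8 of 19 granule genes, for 1 of 8 muscle markers and for 1 of 11 epithelial markers.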

How the data were processed

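Total RNA of colon tissue with tumors was measured on one-color Agilent SurePrint G3 mouse arrays, 3 per group, as grouped by the labels of the samples. The spot intensities deposited by the authors came from Agilent Feature Extraction 10.7.1.1, which corrected them for local background and detrended them, without normalization between arrays. The authors also deposited a table of log2 values per probe, whose columns share the same distribution and follow their own arrays at r of at least 0.999; the normalization method of that table is not given in the sources used here. The files' marks for control, outlier, saturated and dim spots and their probe annotation, which places probes on mm9, were used as deposited.

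In R 4.3.3, outlier spots (790 over the 6 arrays, 2 of them in spots of the set) were left out, 0 spots of the set were saturated, log2 values of a probe's spots were averaged, and each array's 75th percentile over gene probes was subtracted. Symbols came through the accession from RefSeq for 32994 of 56605 gene probes (58.3%), and otherwise from the files. A probe counted as above background where the files marked at least 0.5 of its spots as well above it, and was tested if this was so on all 3 arrays of 1 group or of both. Each gene was represented by its brightest such probe. The fit used limma 3.58.1, with lmFit and eBayes, over 19090 genes, with Benjamini-Hochberg adjustment at 0.05, and the fit was tested on simulated data. The number of arrays limits the precision, between 28103 and 31219 gene probes were well above background on an array, and 3 tested genes had a missing value.

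The 10 genes, the 6 lists of other enteroendocrine genes and the 7 marker lists were chosen with earlier results of these data known. By the rule for naming genes, which covers the fit as labelled, named are all genes of the set, every list gene past the adjusted threshold or below an unadjusted p of 0.05, the genes with the largest and smallest change of each enteroendocrine list, and the 10 genes most like the set. Marker and list genes named from other fits, or for their background, were named after their values were seen. The alternatives were quantile normalization, normexp (offset 50), the deposited table, no filter on dim probes or 1 on all 6 arrays, averaged probes per gene, outlier spots retained, a replicate block, the methods' t-test, the split of the heat map, leaving out each array, and an epithelial reference.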

Additional observations from a re-analysis of the deposited data

How the results depend on the processing

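No gene of the set passed the adjusted threshold under any alternative that was run, including each left-out array, and the smallest adjusted p was 0.211, for Neurod1 without RG@M-γ-CD replicate 1. Under the alternatives that kept all arrays as labelled, the mean was higher in RG@M-γ-CD in 8 of 9 genes, with these exceptions. It was so in 7 of 9 with averaged probes and in 7 of 8 under the filter on all 6 arrays. Without a filter, which adds the dim Neurog3, it was so in 9 of 10. The count was 1 to 8 when an array was left out, with 1 without RG@M-γ-CD replicate 2, 3 without RG@M-γ-CD replicate 3 and 5 without PBS replicate 1. The median change of the set was 0.17 to 0.24 with all arrays as labelled, and −0.44 to 1.11 with 1 left out. In the split of the heat map, which is not RG@M-γ-CD minus PBS, the median difference was 1.02. The number of other enteroendocrine genes past the adjusted threshold was 0 under the alternatives with all arrays, and 0 to 2 with an array left out, where the 2 came without RG@M-γ-CD replicate 1. When an array was left out, the change ranged from −0.44 to 1.13 for Chga, −0.54 to 1.11 for Chgb, −0.60 to 0.997 for Gcg, −0.42 to 1.11 for Pyy, −0.44 to 1.11 for Insl5, −0.31 to 0.74 for Tph1 and −0.56 to 1.55 for Neurod1, while Sst (0.26 to 1.53) and Cck (−1.03 to −0.10) kept their direction. The mean of the Gcg probes gave −0.084 in place of 0.059, since it averages in the dimmer second probe, and no other setting with all arrays turned a direction. Neurod1 has no value under the filter on all 6 arrays, because it was dim in RG@M-γ-CD replicate 1.

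The replicate number of the labels did not pair the arrays: the deviations of same-numbered arrays from their group means correlated at −0.25, −0.23 and 0.136 over genes. With the replicate block, 0 of 9 genes passed the adjusted threshold and 8 of 9 had a higher mean, as without it, with Cck and Sst below an unadjusted p of 0.05, and 464 against 419 of all genes lay there. Signal over background limits Neurod1 and Neurog3, which were not well above background on 1 and on all 6 arrays.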
